A study of Mus musculus with 10 samples.

Results

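The genes described here carry the signal of insulin and of the insulin-like growth factors (IGF) from the cell surface through phosphoinositide 3-kinase (PI3K) and the kinase AKT to the mTOR complexes and to autophagy. They were 46 genes of the 21924 protein-coding genes of the annotation, named by symbol. Earlier results of these data were known when they were chosen. A gene was taken to have a peak when a listed peak lay, with both ends, in exons of one of its transcripts on its own strand. On that rule 20 of the 46 genes had a peak in at least 1 list, and 26 had none. Of the 21924 protein-coding genes 3641 had one, and of genes of any kind in the whole series 4184 did.

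The data were peak lists of N6-methyladenosine (m6A) from methylated RNA immunoprecipitation sequencing, in which fragments bound by an antibody against m6A (the IP) are compared with the fragmented RNA they came from (the input). Mouse 3T3-L1 fibroblasts, a clonal line that turns into fat-storing cells in culture, gave 10 libraries, 1 IP and 1 input for each of 5 conditions. With the solvent dimethyl sulfoxide alone the cells were sampled as preadipocytes (DMSO Pre), at mitotic clonal expansion after induction (DMSO MCE) and as cells labelled mature adipocytes (DMSO Diff). Cells with 20 µM rhein, a plant compound reported to inhibit the m6A demethylase FTO, on days 0 to 3 were sampled at the MCE and Diff stages (rhein MCE, rhein Diff). Every MCE and Diff culture, rhein or not, received an induction cocktail that contains insulin together with dexamethasone and a phosphodiesterase inhibitor, and later medium held 10 µg/ml insulin, so all of them had met the hormone whose pathway is described here.

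Insulin and IGF1 bind receptor tyrosine kinases, whose docking proteins IRS1 and IRS2 recruit PI3K. The lipid that PI3K makes brings AKT to the membrane, and AKT then restrains FOXO transcription factors, GSK3 and the TSC complex, which frees mTOR complex 1 to promote translation and to hold autophagy back. In fat cells this route drives glucose uptake and lipid storage, and in preadipocytes it is needed for differentiation. The m6A mark lies in mRNA at a favoured short sequence centred on GGAC, often near the stop codon, and proteins that read it affect the stability, splicing and translation of the transcript.

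The lists for DMSO held 2824 peaks at the Pre stage, 5128 at MCE and 2944 at Diff, and those for rhein held 3069 at MCE and 3071 at Diff. The rhein MCE and rhein Diff lists were nearly the same list, with 3067 identical spans. All 26 rhein peaks in the genes described here had identical spans in both, with scores that differed by at most 0.030. The rhein lists were therefore counted as 1, which leaves 4 distinct lists, and the 2 rhein comparisons share it. Which stage the shared rhein list describes cannot be told from these files. Since no condition had a second IP, no difference between lists could be tested, and a peak missing from a list is one that did not pass the caller's threshold there. The number of reads behind the peaks and the level of the transcripts are unknown from these files, so less RNA and less m6A cannot be told apart. None of the adipocyte markers Pparg, Cebpa, Fabp4, Adipoq, Plin1 and Lpl had a peak in any list, nor had the preadipocyte marker Dlk1, so the labelled cell types could not be checked here. Pdgfra, a marker of fibroblasts, had 5, 2 and 3 peaks in DMSO Pre, MCE and Diff, and 1 with rhein. The collagen genes Col1a1 and Col1a2 had 2 and 4 peaks in DMSO Pre and 0 elsewhere.

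Several regions carry the comparisons that follow. They are given 5′ to 3′ on the strand of the gene, from GENCODE M21 transcripts on GRCm38 (mm10), in lower case with each GGAC in capitals. The Irs1 piece is the coding part of that gene's best-scored peak, which was listed in DMSO Pre. The first Irs2 piece is the coding region called in DMSO MCE, DMSO Diff and the rhein lists, and the second is the region whose score differed most between DMSO MCE and rhein. The Igfbp4 piece is the coding part of the best-scored peak in any of the 46 genes, and it holds no GGAC. The Irs1 and Igfbp4 pieces were chosen after their values were seen.
Irs1, chr1:82286873-82287097, minus strand: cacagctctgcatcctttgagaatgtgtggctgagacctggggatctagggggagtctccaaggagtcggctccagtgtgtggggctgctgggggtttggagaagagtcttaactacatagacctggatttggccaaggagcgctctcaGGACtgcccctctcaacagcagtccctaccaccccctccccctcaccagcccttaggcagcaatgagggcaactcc
Irs2, chr8:11007736-11007910, minus strand: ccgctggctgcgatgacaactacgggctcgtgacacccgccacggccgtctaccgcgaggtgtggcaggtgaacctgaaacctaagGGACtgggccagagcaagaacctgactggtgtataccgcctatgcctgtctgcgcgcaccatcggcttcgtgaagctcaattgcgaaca
Irs2, chr8:11007186-11007410, minus strand: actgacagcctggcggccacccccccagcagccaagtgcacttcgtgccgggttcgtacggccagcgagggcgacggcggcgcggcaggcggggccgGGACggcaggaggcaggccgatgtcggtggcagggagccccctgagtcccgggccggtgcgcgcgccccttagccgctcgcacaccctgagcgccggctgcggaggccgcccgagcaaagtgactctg
Igfbp4, chr11:99041497-99041718, plus strand: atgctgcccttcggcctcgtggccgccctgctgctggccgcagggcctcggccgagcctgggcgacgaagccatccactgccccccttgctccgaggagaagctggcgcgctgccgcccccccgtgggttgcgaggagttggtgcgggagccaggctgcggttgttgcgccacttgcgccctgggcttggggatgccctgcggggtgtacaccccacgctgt

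The next coding pieces come from a region in the 3 DMSO lists alone (Sos1), from one in DMSO Diff and rhein (Foxo3) and from the start of the coding sequence of Pik3r1, which had a peak in all lists. They are the spans of the DMSO Pre peak (Sos1) and of the rhein peak (Foxo3), and the coding part of the DMSO Pre peak (Pik3r1). The shorter peaks at these places held no GGAC. Those were the peaks of Sos1 in DMSO MCE, Foxo3 in DMSO Diff, and Pik3r1 in DMSO MCE and rhein.
Sos1, chr17:80433966-80434090, minus strand: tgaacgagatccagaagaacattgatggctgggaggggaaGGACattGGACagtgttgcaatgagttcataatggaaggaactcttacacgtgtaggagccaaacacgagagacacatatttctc
Foxo3, chr10:42275152-42275276, minus strand: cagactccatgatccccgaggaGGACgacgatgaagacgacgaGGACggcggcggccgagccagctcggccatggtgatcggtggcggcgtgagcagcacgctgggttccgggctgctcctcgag
Pik3r1, chr13:101757447-101757659, minus strand: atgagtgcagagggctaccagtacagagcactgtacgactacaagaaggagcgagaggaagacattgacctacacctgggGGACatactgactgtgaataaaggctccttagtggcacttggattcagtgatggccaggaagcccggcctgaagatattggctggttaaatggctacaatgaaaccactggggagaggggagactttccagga

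From untranslated regions (UTR), 30 bases around a GGAC are shown for 4 peaks called in 2 lists each.
Gsk3b, 5′ UTR, chr16:38089730-38089759, plus strand: GGACgggggaggGGACcccgagGGACggaa
Irs2, 3′ UTR, chr8:10985263-10985292, minus strand: tgaatcccccagGGACagtaGGACtgatct
Igfbp5, 3′ UTR, chr1:72860128-72860157, minus strand: ctcctgttgcctGGACaGGACagttggctg
Atg2a, 3′ UTR, chr19:6262138-6262167, plus strand: atggaggcttttGGACccatGGACcccact

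A peak was listed in 12 of the 46 genes in DMSO Pre (26.1%, 95% Wilson interval 15.6 to 40.3), against 6.89% of all protein-coding genes in that list. DMSO MCE also had a peak in 12 of the 46, beside 12.5% of coding genes, in a list of far more peaks. DMSO Diff had one in 9 of 46 (19.6%, 10.7 to 33.2) beside 6.69% of coding genes. The rhein lists had one in 11 of 46 (23.9%, 13.9 to 37.9), beside 7.44% (rhein MCE) and 7.45% (rhein Diff) of coding genes. The intervals of the 4 distinct lists overlapped throughout, and in each the share among the 46 genes was above the share among coding genes. These genes have long transcripts, which bears on such a share. The median length of the longest coding transcript was 6347 bases for the 20 genes with a peak, 4802 for the 26 without, 3690 for coding genes with a peak in any list and 2683 for all coding genes. The part of transcript length and transcript level in the shares was not tested.

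**Figure D1:**
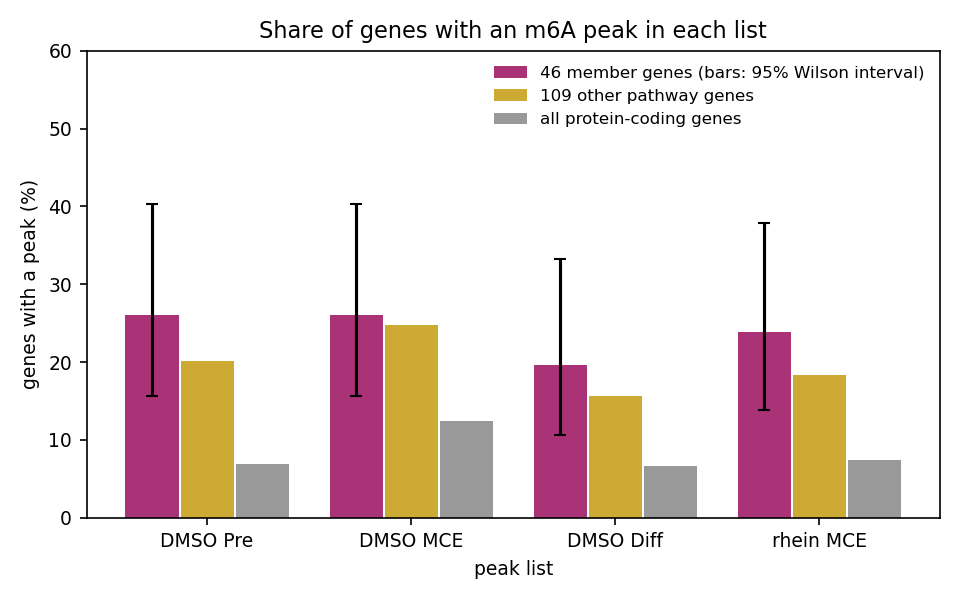
Share of genes with an m6A peak (vertical axis, percent) in each of the 4 distinct lists (horizontal axis), for the 46 genes with their 95% Wilson interval, for 109 other genes of the same pathways and for all protein-coding genes. The 46 genes stood at 26.1%, 26.1%, 19.6% and 23.9%, above the coding genes in each list, and their intervals overlapped from list to list.

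Another 109 genes of insulin, PI3K, mTOR and autophagy function, also chosen with earlier results of these data known, gave a like picture. Under DMSO, 22 of these had a peak at the Pre stage (20.2%), 27 at MCE (24.8%) and 17 at Diff (15.6%), and 20 had one with rhein (18.3%). They included the insulin receptor gene Insr, with 1, 2 and 1 peaks in DMSO Pre, DMSO MCE and DMSO Diff and 0 in rhein, and the IGF1 receptor gene Igf1r, with 1, 2, 1 and 2 in the same order. The glucose transporter gene Slc2a1 had 1, 4, 1 and 3 peaks.

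Which of the 46 genes had a peak differed more between lists than how many did. Over all genes this was also so between DMSO Pre and DMSO Diff, where 1748 and 1736 genes had a peak. From DMSO Pre to DMSO MCE, 6 genes appeared (Eif4ebp1, Foxo3, Grb2, Igfbp5, Irs2, Pik3r2), 6 disappeared (Gsk3b, Igf2r, Irs1, Mtor, Ptpn11, Rptor) and 6 were in both. The 6 appearing and the 6 disappearing were each 33.3% of the 18, whereas over all genes with a peak in either list 50.9% were in DMSO MCE alone and 15.6% in DMSO Pre alone. From DMSO MCE to DMSO Diff, 2 of 14 genes appeared (Foxo1, Igf2r) and 5 disappeared (Atg2a, Grb2, Igfbp5, Pik3r2, Rps6kb1). Those were 14.3% and 35.7%, beside 14.6% and 50.6% over all genes. Grb2 was not among those that disappeared when any exonic base sufficed, which left 4. Between DMSO Pre and DMSO Diff, 4 of 16 genes were in DMSO Diff alone (25%) and 7 in DMSO Pre alone (43.8%), beside 31.1% and 31.6% over all genes. With counts this small the shares are descriptions of single genes, which are taken in turn by role.

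**Figure D2:**
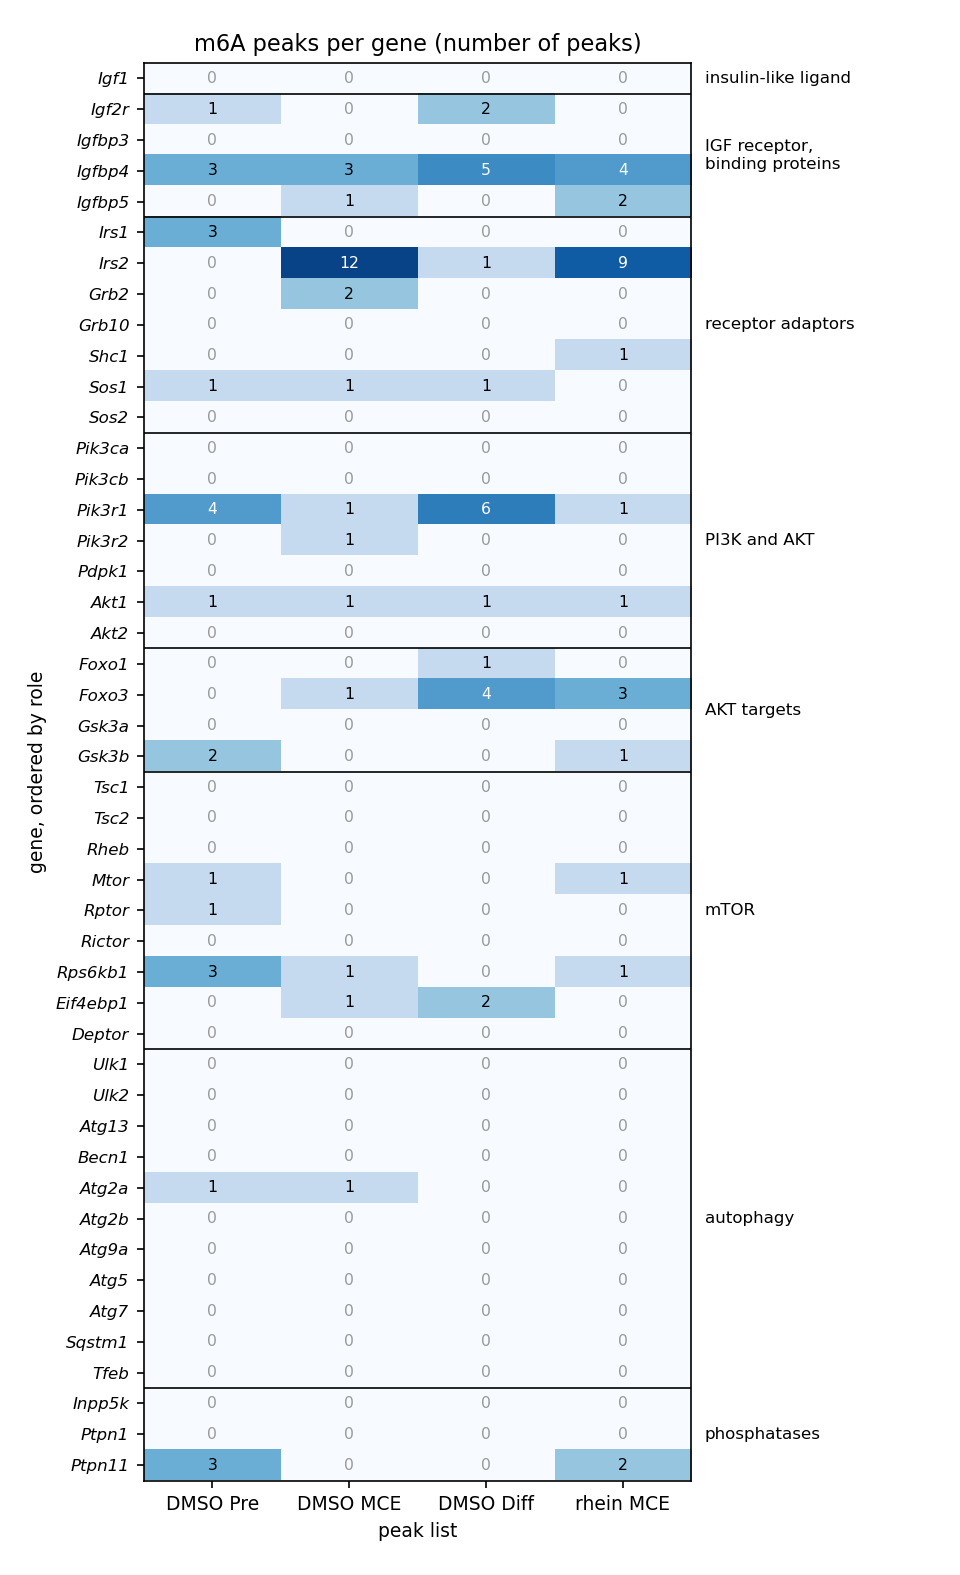
Number of m6A peaks (printed in each cell, darker for more) for each of the 46 genes (rows, grouped by role) in the 4 distinct lists (columns). Irs1 had 3 peaks in DMSO Pre alone and Irs2 had 12 in DMSO MCE and 9 in rhein MCE, while 10 of the 11 autophagy genes had 0 in every list.

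Of the ligand and the proteins that bind it outside the cell, Igf1, which encodes the ligand of the IGF1 receptor, had no peak in any list, and neither had Igfbp3, an IGF-binding protein. Igfbp4, another secreted IGF-binding protein, had 3 peaks each in the Pre and MCE lists of DMSO, 5 in DMSO Diff and 4 with rhein. The median gene with a peak had 1 in each of these lists. On its longest coding transcript, of 3831 bases, the Igfbp4 peaks covered 613 bases at the Pre stage, 400 at MCE and 1363 at Diff under DMSO, and 1138 with rhein.

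The scores of Igfbp4 were the highest among the 46 genes in each list. The score column ranks peaks within a list and was taken to be an adjusted p-value on a minus log2 scale, so a higher score is a call less likely under the null model of the caller. It depends on read number as well as on enrichment. The coding region in exon 1 (chr11:99041494-99041693) had a score of 43.1 in DMSO MCE, rank 63 of 5128. In rhein the same region, 25 bases longer (chr11:99041494-99041718), had a score of 161, rank 5 of 3069. No placed peak covered it in DMSO Pre or DMSO Diff, although DMSO Diff held a peak with a score of 30.2, rank 116, that began in this exon and ended outside annotated exons (chr11:99041444-99042233). In DMSO Diff the best Igfbp4 peak ran instead over 575 exonic bases (chr11:99047317-99051651, score 50.1, rank 59), in 4 exons of another transcript. The first of these exons is absent from the longest coding transcript. A 3′ UTR peak at chr11:99051902-99052001 scored 42.6, rank 75, and was listed in DMSO Diff alone. A region further into the 3′ UTR was called in DMSO Diff (chr11:99052227-99052676, score 37.0, rank 88) and in rhein (chr11:99052202-99052676, score 44.7, rank 99), and not in DMSO Pre or DMSO MCE. In DMSO Pre the best of the 3 Igfbp4 peaks scored 14.0, rank 441.

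Igfbp5, which also encodes a secreted IGF-binding protein, had 1 peak in DMSO MCE and 2 in rhein, all in its 3′ UTR and all listed under the neighbouring gene Igfbp2. The span chr1:72860032-72860306 was the same in both, with a score of 15.9 and rank 332 in DMSO MCE and a score of 10.7 and rank 829 in rhein. It holds 5 GGAC, among them the pair in the 30 bases given above. Igf2r, the receptor that takes IGF2 to lysosomes, had 1 peak in DMSO Pre and 2 in DMSO Diff, at 3 separate places. That in DMSO Pre lay in the coding sequence in exon 29 of 48 (score 8.64), and those in DMSO Diff lay in exon 31 (score 7.76) and in the 3′ UTR (score 6.47).

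The insulin receptor substrates had their peaks in different lists. Irs1, the docking protein through which the insulin receptor binds PI3K, had 3 peaks in DMSO Pre and 0 in the other lists. They lay in the coding sequence close before the stop codon (chr1:82286873-82287097, score 9.56, rank 989 of 2824), in the 3′ UTR (chr1:82237251-82237475, score 6.72, rank 1786) and in the 5′ UTR (chr1:82290773-82290847, score 4.47, rank 2724). Each of the 3 holds 1 GGAC. The best-scored of them was in the upper part of its list and the 5′ UTR peak near the bottom.

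Irs2, the other main substrate, had 0 peaks at the Pre stage, 12 at MCE and 1 at Diff under DMSO, and 9 with rhein. Among 3001 genes with a peak in DMSO MCE, 4 had 12 or more, Irs2 included, and among 1891 in rhein MCE, 7 had 9 or more. Its peaks covered 1825 exonic bases in DMSO MCE, 28.9% of the transcript, and 1650 in rhein, 26.1%, but 175 in DMSO Diff, 2.77%. They spread over the whole transcript, from the first part of the long coding exon to far into the 3′ UTR.

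**Figure D3:**
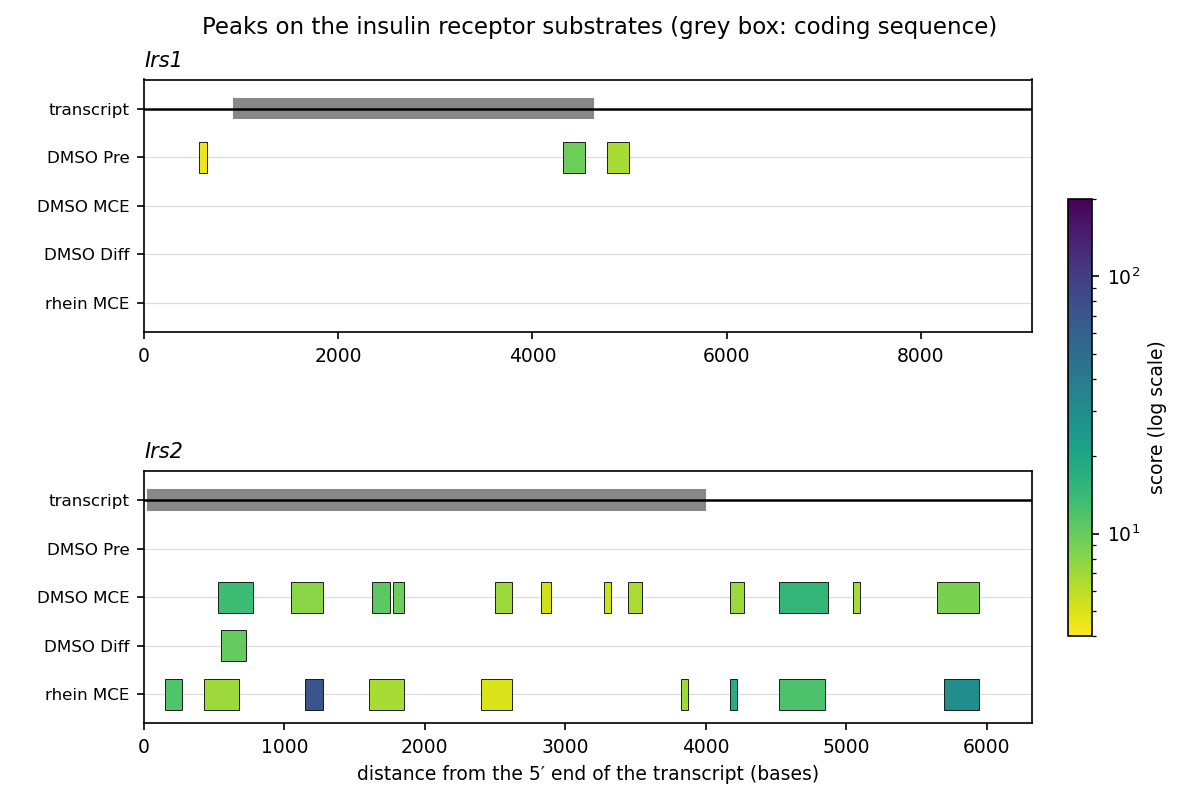
Peaks on the longest coding transcripts of Irs1 and Irs2 (horizontal axis, bases from the 5′ end; grey box, coding sequence), with 1 row for each of the 4 distinct lists and the colour of a box giving its score on a log scale. Irs1 had 3 boxes, all in the DMSO Pre row, and Irs2 had 12, 1 and 9 in the rows of DMSO MCE, DMSO Diff and rhein MCE.

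The peaks of Irs2 in DMSO MCE and rhein lay largely at the same places. Of the 12 in DMSO MCE, 8 shared at least 1 exonic base with a rhein peak (66.7%), and of the 9 in rhein, 7 shared one with a DMSO MCE peak (77.8%). The scores did not keep their order. In the coding sequence, chr8:11007186-11007410 scored 7.94 in DMSO MCE, rank 1815 of 5128, and the shorter span chr8:11007186-11007310 scored 72.8 in rhein, rank 34 of 3069. The GGAC of the longer span is not held whole by the shorter one. In the 3′ UTR, chr8:10985056-10985355 scored 8.83 in DMSO MCE, rank 1316, and chr8:10985056-10985305 scored 29.4 in rhein, rank 179. Another 3′ UTR region went the other way, with a score of 15.0 and rank 374 in DMSO MCE (chr8:10986131-10986480) beside 12.1 and rank 661 in rhein (chr8:10986156-10986480). The single DMSO Diff peak (chr8:11007736-11007910, score 10.3, rank 850) lay in the region called as chr8:11007686-11007935 in DMSO MCE (score 13.6, rank 490) and as chr8:11007786-11008035 in rhein (score 7.10, rank 2035). That region was the one site of Irs2 in 3 distinct lists.

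At this last region an antisense gene, 9530052E02Rik, has an exon on the other strand. The DMSO MCE list held a plus-strand peak there too (chr8:11007850-11007924), all of whose 75 bases lie over the Irs2 exon, and the DMSO Pre list held a plus-strand peak (chr8:11008000-11044741, score 6.58) with 12 of its 100 exonic bases over it. Whether reads were counted by strand is not given in the sources used here, so at this place reads from Irs2 and from 9530052E02Rik cannot be told apart, and the 0 for Irs2 in DMSO Pre rests on the strand column. All 12 DMSO MCE peaks of Irs2, the DMSO Diff peak and 8 of the 9 rhein peaks carry the symbol 9530052E02Rik in the lists. By listed symbol, Irs2 would have 1, 0, 0 and 1 peaks in DMSO Pre, DMSO MCE, DMSO Diff and rhein.

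The other adaptors had few peaks. Sos1, the exchange factor that activates RAS, had 1 peak in each DMSO list and 0 in rhein, all in coding exon 10 of 22. They were chr17:80433966-80434090 in DMSO Pre (score 7.37, rank 1558), chr17:80433941-80433990 in DMSO MCE (score 5.98, rank 4069) and chr17:80433991-80434140 in DMSO Diff (score 8.94, rank 1208). The DMSO Pre peak shared bases with each of the others, while the spans in DMSO MCE and DMSO Diff only adjoined. Grb2, the adaptor that brings SOS to receptors, had 2 placed peaks, both in DMSO MCE. One lay in its 5′ UTR (score 6.14) and one in its 3′ UTR (score 7.16). DMSO Diff held a further peak listed as Grb2 (chr11:115699917-115708456, score 5.86, rank 2490). It touched a Grb2 exon but had 1 end outside exons, so it was not counted. Shc1, which links receptors to GRB2, had 1 peak in rhein alone, at chr3:89422116-89422165 in an alternative first exon that the longest coding transcript lacks, with a score of 6.91 and rank 2166 of 3069. Grb10 and Sos2 had none.

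Of the PI3K subunits, the catalytic genes Pik3ca and Pik3cb had no peak in any list. Of the 109 other genes, regulatory Pik3r3 had none either, and catalytic Pik3c2a had 1 in DMSO Pre. Pik3r1, which encodes p85 alpha, had 4, 1 and 6 peaks in the Pre, MCE and Diff lists of DMSO and 1 with rhein. Exonic bases under them came to 450, 75, 1475 and 75, which put DMSO Diff highest. The one constant place was the start of the coding sequence in exon 2. The span chr13:101757597-101757671 was identical in DMSO MCE and rhein, with a score of 10.6 in both and ranks 820 and 852. DMSO Pre had chr13:101757447-101757671 there (score 12.3, rank 592), and DMSO Diff had a peak of 800 exonic bases over exons 1 and 2 (score 11.3, rank 698). The 3′ UTR of Pik3r1 held 1 peak in DMSO Pre and 4 in DMSO Diff, with scores of 6.77 to 15.0 in the latter, and none in DMSO MCE or rhein. Pik3r2, for p85 beta, had 1 coding peak in DMSO MCE alone, close to the bottom of that list (score 5.16, rank 4806 of 5128).

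Akt1 was the third gene with a peak in every list, beside Igfbp4 and Pik3r1, though at an adjusted p-value below 0.01 it kept those in DMSO MCE and rhein alone. Each list had 1 peak over exons 2 and 3 of its 14 exons, around the start of the coding sequence, which lies in exon 2, and in all but DMSO Pre it reached the last base of exon 1. Its scores were 4.87, 7.75 and 6.56 in the Pre, MCE and Diff lists of DMSO and 8.82 with rhein, at ranks 2558, 1969, 2191 and 1223. The scores in DMSO MCE and rhein were above the median of their lists and the others below it, and no GGAC lay under any of the peaks. Akt2, the main AKT of insulin action in adipocytes, and Pdpk1, the kinase that activates AKT, had no peak.

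**Figure D4:**
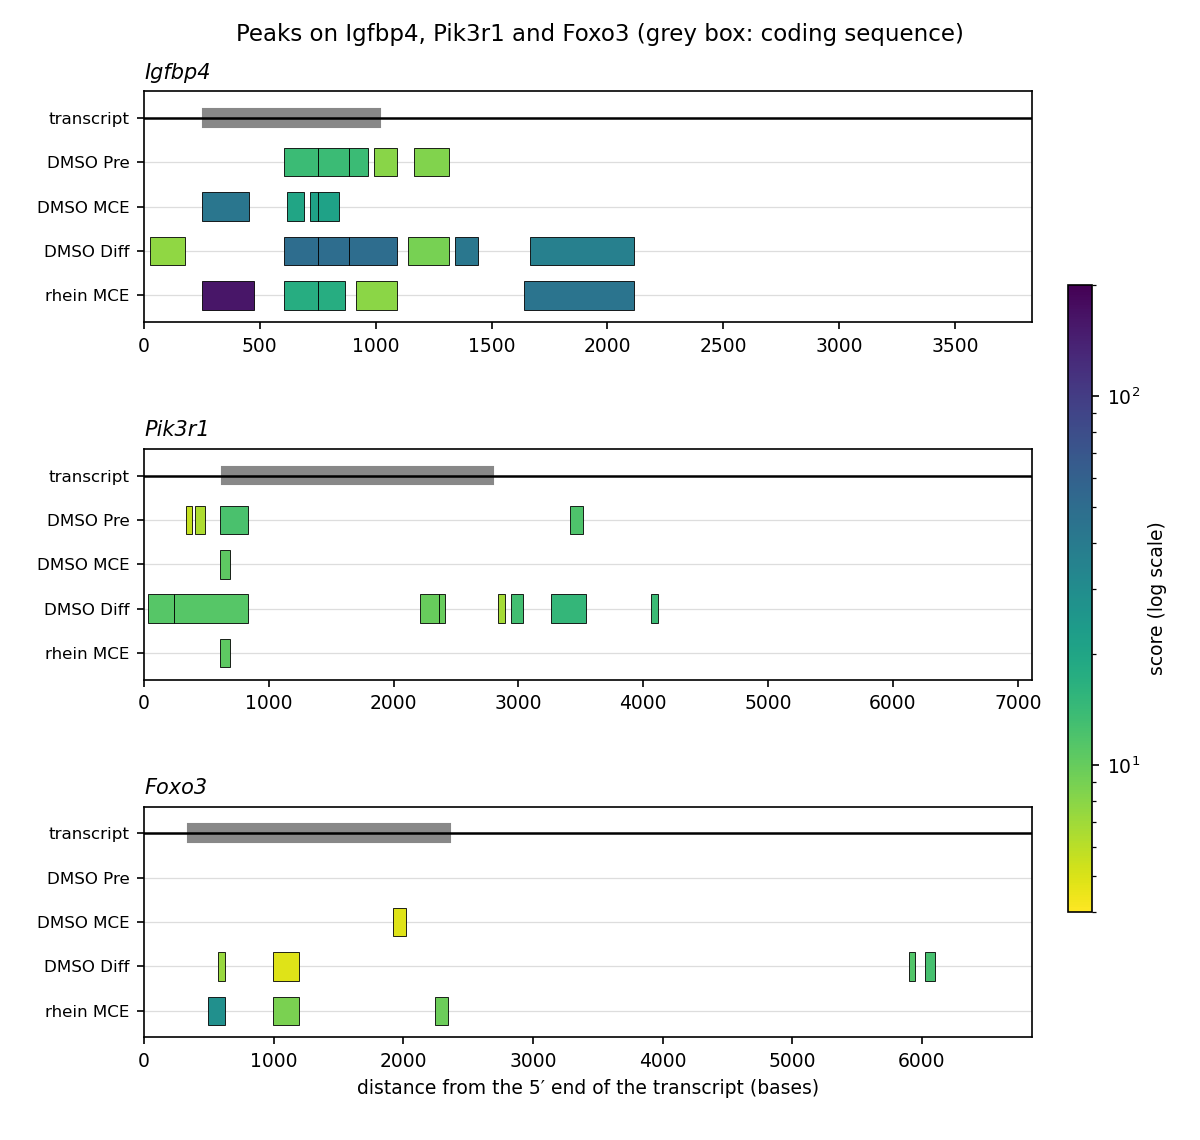
Peaks on the longest coding transcripts of Igfbp4, Pik3r1 and Foxo3 (horizontal axis, bases from the 5′ end; grey box, coding sequence) in the 4 distinct lists (rows), with colour giving the score on a log scale and peaks over several exons drawn as adjoining boxes. Igfbp4 had 3, 3, 5 and 4 peaks, Pik3r1 4, 1, 6 and 1, and Foxo3 0, 1, 4 and 3, in DMSO Pre, DMSO MCE, DMSO Diff and rhein MCE.

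Among the targets of AKT, Foxo3 had 4 peaks in DMSO Diff and 3 with rhein, but 1 in DMSO MCE and 0 in DMSO Pre. The FOXO proteins are transcription factors that AKT keeps out of the nucleus. The coding region chr10:42275152-42275276 scored 28.5 in rhein, rank 190, and a shorter span at the same place (chr10:42275152-42275201) scored 7.31 in DMSO Diff, rank 1866. The span chr10:42197663-42197862 was identical in DMSO Diff (score 4.83, rank 2826 of 2944) and rhein (score 8.83, rank 1217). Only the DMSO Diff list had Foxo3 peaks in the 3′ UTR, a pair with scores of 12.6 and 11.6, and the single DMSO MCE peak (score 4.83, rank 5046 of 5128) shared no base with those of other lists. Foxo1 had 1 coding peak, in DMSO Diff alone (score 5.06, rank 2752).

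Gsk3b, the kinase that restrains glycogen synthesis until AKT inhibits it, had 2 peaks in DMSO Pre and 1 in rhein, all in its 5′ UTR. The region chr16:38089651-38089825 scored 8.13 in DMSO Pre, rank 1307, and chr16:38089726-38089825 scored 18.6 in rhein, rank 345. Up to 4 GGAC lie in it, 3 of them within the 30 bases given above. Gsk3a had no peak.

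Of the 9 mTOR genes 4 had a peak. Mtor, the kinase of both complexes, had a single peak in the DMSO Pre and rhein lists, at one and the same 50 bases of its 3′ UTR (chr4:148557025-148557074, 189 bases past the end of the coding sequence by its midpoint). It scored 9.79 in DMSO Pre, rank 938, and 7.33 in rhein, rank 1878, and the lists name it Exosc10. Rps6kb1, which encodes S6 kinase 1, had 3 peaks in DMSO Pre, 1 each in DMSO MCE and rhein, and 0 in DMSO Diff. Read along its minus strand, its 3′ UTR peaks ended at the same base, chr11:86502446. They began at 86502495 in DMSO Pre (score 11.9), 86502670 in DMSO MCE (score 9.88) and 86502520 in rhein (score 9.60). This was a site of 3 distinct lists. Eif4ebp1, whose product represses translation when mTORC1 is idle, had 1 peak in DMSO MCE (3′ UTR, score 7.69). It had 2 in DMSO Diff (scores 5.98 and 8.26) at other places, and 0 in DMSO Pre and rhein. Rptor, for the subunit that defines mTORC1, had 1 peak in DMSO Pre alone, near the bottom of the list (score 4.37, rank 2759 of 2824). Tsc1, Tsc2, Rheb, Rictor and Deptor had none.

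Of the 11 autophagy genes, only Atg2a, for a lipid transfer protein of the growing autophagosome, had any, 1 in DMSO Pre (chr19:6262143-6262267, score 6.0, rank 2056) and 1 in DMSO MCE (chr19:6262018-6262267, score 7.52, rank 2162). Both lay in the 3′ UTR, overlapped, and were listed under the microRNA gene Mir194-2. Atg5, part of the conjugate that lipidates LC3, and Atg7, the E1-like enzyme of both conjugation systems, are discussed by the study for their m6A. Neither had a peak in any of the 5 lists, by exon or by listed symbol. Ulk1, Ulk2, Atg13, Becn1, Atg2b, Atg9a, Sqstm1 and Tfeb had none either. The 1 gene with a peak is 9.09% of the 11 in DMSO Pre and in DMSO MCE, beside 6.89% and 12.5% of coding genes. Of 39 other autophagy genes among the 109, 7 had a peak in DMSO Pre (17.9%) and 9 in DMSO MCE (23.1%). DMSO Diff had 6 of them (15.4%) and rhein 10 (25.6%). The shares of coding genes were 6.89%, 12.5%, 6.69% and 7.44% in the same order. Tax1bp1, a cargo receptor, had 1, 4, 2 and 2 peaks in DMSO Pre, DMSO MCE, DMSO Diff and rhein, and Nbr1, another cargo receptor, had 1, 2, 1 and 1.

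Among the phosphatases, Ptpn11, for SHP2, a tyrosine phosphatase that promotes RAS signalling, had 3 peaks in DMSO Pre and 2 in rhein, all in the 3′ UTR. The DMSO Pre span chr5:121131908-121132132 (score 5.36) contains both rhein spans, chr5:121131908-121131982 (score 7.84) and chr5:121132008-121132082 (score 6.68). Ptpn1, for PTP1B, which acts on the insulin receptor, and Inpp5k, for a lipid phosphatase that dampens insulin signalling, had none.

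Rhein was compared with DMSO at each stage by the presence of a peak. Against DMSO MCE, 4 of 16 genes were in rhein MCE alone (Gsk3b, Mtor, Ptpn11, Shc1), 5 in DMSO MCE alone (Atg2a, Eif4ebp1, Grb2, Pik3r2, Sos1) and 7 in both. The DMSO MCE list is the longer, and cut to equal length or to an adjusted p-value below 0.01 it left 3 in place of 5, without Pik3r2 and Sos1. Foxo3 dropped out of DMSO MCE too, so 5 genes in place of 4 were in rhein MCE alone under either cut. The shares over all genes under these cuts are not given here. Uncut, the 4 in rhein MCE alone were 25% and the 5 in DMSO MCE alone 31.2%. Over all genes with a peak in either list the shares were 14.4% and 46.0%. Against DMSO Diff, 6 of 15 genes were in rhein Diff alone (Gsk3b, Igfbp5, Mtor, Ptpn11, Rps6kb1, Shc1) and 4 in DMSO Diff alone (Eif4ebp1, Foxo1, Igf2r, Sos1), with 5 in both. These were 40.0% and 26.7%, beside 33.5% and 27.4% over all genes. Gsk3b, Mtor and Ptpn11 had peaks in both DMSO Pre and rhein and in neither of the later DMSO lists. The share of all genes with that pattern is not given here, so it describes these genes only. Shc1 was the one gene with a peak in rhein alone, and Sos1 the one with a peak in the 3 DMSO lists alone, of which it kept 2, DMSO Pre and DMSO Diff, at equal list length or below 0.01.

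Peak by peak, 15 of the 26 DMSO MCE peaks in these genes shared at least 1 exonic base with a rhein MCE peak (57.7%, 38.9 to 74.5), beside 32.0% of all DMSO MCE peaks. In the other direction 13 of 26 did (50%, 32.1 to 67.9), beside 53.3% of all. Irs2 gave 8 of the 15 and 7 of the 13. Without it 7 of 14 DMSO MCE peaks were shared (50%, 26.8 to 73.2), and 6 of 17 rhein peaks (35.3%, 17.3 to 58.7). Of the 24 DMSO Pre peaks 6 shared a base with a DMSO MCE peak (25%, 12.0 to 44.9), beside 44.8% of all peaks of that list, and of the 23 DMSO Diff peaks 4 did (17.4%, 6.98 to 37.1), beside 45.8% of all. With Irs2 counted, the other pairs were nearer to the whole list. DMSO MCE peaks shared a base with a DMSO Pre peak in 7 of 26 cases (26.9%, beside 24.8% of all) and with a DMSO Diff peak in 6 of 26 (23.1%, beside 26.0%), and DMSO Pre peaks with a DMSO Diff peak in 9 of 24 (37.5%, beside 38.2%). For DMSO MCE this closeness rested on the 12 peaks of Irs2, of which 0 were shared with DMSO Pre and 1 with DMSO Diff. Without Irs2, 7 of 14 DMSO MCE peaks were shared with DMSO Pre (50%, 26.8 to 73.2), above the 24.8% of all. With DMSO Diff 5 of those 14 were shared (35.7%, 16.3 to 61.2, beside 26.0%). Of the 23 DMSO Diff peaks, 7 shared a base with a rhein Diff peak (30.4%, beside 40.1%). Joined over the 4 distinct lists, the peaks made 60 sites. Of these, 37 were called in 1 list, 17 in 2, 3 in 3 and 3 in all 4. The sites in 3 lists were those of Irs2, Sos1 and Rps6kb1, and the sites in 4 those of Igfbp4, Pik3r1 and Akt1. DMSO Diff had the most sites of its own, 13, beside 10 in DMSO Pre, 9 in DMSO MCE and 5 in rhein. The same counts of sites over all genes are not given here, so whether they are particular to these genes was not tested.

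By place on the transcript, the 99 peaks of the 4 distinct lists divided into 11 with their midpoint in the 5′ UTR (11.1%, 6.32 to 18.8), 48 in the coding sequence (48.5%, 38.9 to 58.2) and 40 in the 3′ UTR (40.4%, 31.3 to 50.3). The lists themselves call 19 of the 99 5′ UTR (19.2%, 12.6 to 28.0), beside 9.55% of all listed peaks. Over all peaks on coding transcripts the shares by midpoint were 6.72%, 54.4% and 38.8%. Within 200 bases of the end of the coding sequence lay 13 of the 99 (13.1%, 7.84 to 21.2), beside 23.7% of all peaks. By list these were 3 of 24 in DMSO Pre, 1 of 26 in DMSO MCE, 5 of 23 in DMSO Diff and 4 of 26 with rhein, and without Irs2 they were 12 of 77 in all (15.6%, 9.15 to 25.3). Peaks of the same gene share a transcript, so the intervals cover counting error only.

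The letters GGAC, searched on the strand of the gene alone, were present in 51 of the 99 peaks (51.5%, 41.8 to 61.1) and in 51.9% of all placed peaks. By list they were in 14 of 24 peaks at the Pre stage, 11 of 26 at MCE and 12 of 23 at Diff under DMSO, and in 14 of 26 with rhein. The looser m6A consensus known as DRACH (any base but C, then A or G, then A, C and any base but G), of which GGAC before A, C or T is one form, was in 87 of the 99 (87.9%, 80.0 to 92.9) and in 87.0% of all. Both shares were close to those of all peaks.

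**Figure D5:**
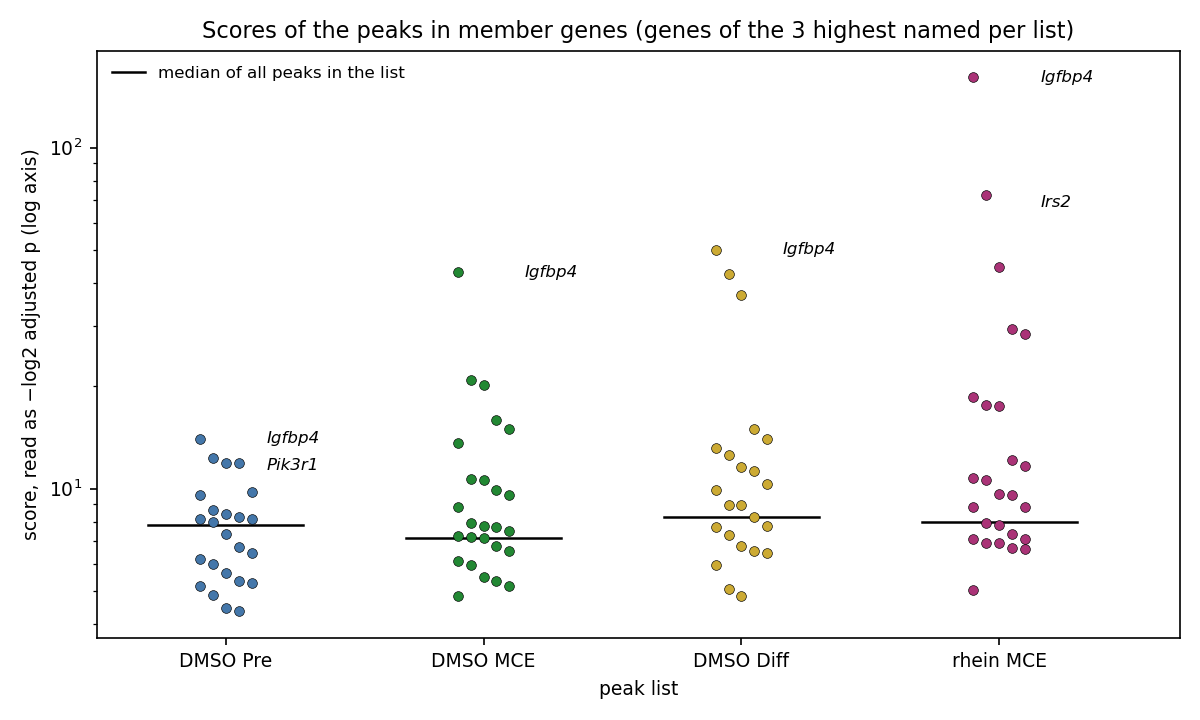
Scores of the peaks in the 46 genes (points, log vertical axis, an adjusted p-value on a minus log2 scale) in the 4 distinct lists (horizontal axis), with the median of all peaks of each list as a line and the genes of the 3 highest scores named. Igfbp4 was highest in every list, from 14.0 in DMSO Pre to 161 in rhein MCE, and Irs2 at 72.8 was second in rhein MCE.

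By score, the median peak of these genes was below that of its list in DMSO Pre and above it in the other lists. The median score was 7.67 at the Pre stage beside 7.82 for all peaks of the list. It was 7.72 beside 7.18 at MCE and 8.94 beside 8.27 at Diff under DMSO, and 9.63 beside 7.96 with rhein. In the upper part of the list by rank, down to its middle, lay 58 of the 99 (58.6%, 48.7 to 67.8). The highest score was in Igfbp4 each time.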

How the data were processed

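The authors, per the study's methods and the submitters' processing notes, trimmed reads with Trim Galore 0.6.5, aligned them to mm10 with HISAT2 2.1.0, removed duplicates with Picard 2.23.5 and poorly mapped reads with SAMtools 1.9, called peaks with exomePeak2 and annotated them with ChIPseeker 1.26. Which IP and input entered each list is not given in the sources used here. The one measurement deposited, under a header naming a log2 fold change, was treated as a score, since its values run from 4.19 to 735 in DMSO Pre and its lowest value corresponds, as minus log2, to an adjusted p-value of 0.0549 there.

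Peaks were placed on GENCODE M21 (GRCm38), both ends in exons of 1 transcript on the same strand, coding transcripts first, then the longest. This placed 96.5% to 97.6% of each list, and the listed symbol, which differed for 26.8% to 28.7% of placed peaks, was not used. The 46 genes, the 109 other genes and the regions shown were chosen with earlier results of these data known. Coordinates and scores are given for the genes whose presence differed between DMSO MCE and rhein, those in all lists, the 3 best ranks per list, and Atg5 and Atg7. Any other was chosen after its values were seen. Shares have 95% Wilson intervals, and no test was run. Alternatives were any exonic base, the listed symbol, equal list lengths, an adjusted p-value below 0.01, the listed part, a 100-base motif window, DRACH, an overlap of 50% of the shorter peak and, chosen after seeing the data, the counts without Irs2. Python 3.11.15, pandas 2.3.3, NumPy 2.4.6, SciPy 1.17.1 and Matplotlib 3.10.9 were used, and the placement was tested on simulated data.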

Additional observations from a re-analysis of the deposited data

Results flagged for a closer look

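In 4 counts the difference between rhein and DMSO had opposite signs at the stages. Rhein minus DMSO was -1 at MCE and 2 at differentiation for the number of the 46 genes with a peak. For peaks in Irs2 it was -3 and 8, for peaks in Igfbp4 1 and -1, and for peaks in Foxo3 2 and -1. The differences were not tested, with 1 list per condition. The rhein lists are nearly identical, so the stages differ in these counts through the DMSO lists, as in Irs2, with 12 peaks in DMSO MCE and 1 in DMSO Diff against 9 in both rhein lists.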

How the results depend on the processing

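Of 18 counts of genes, peaks and changes, 18 stayed within 1.5 times when any exonic base sufficed, 16 at equal list lengths of 2824, 16 at an adjusted p-value below 0.01 and 15 by listed symbol. By symbol, peaks in the 46 genes were 12 in DMSO MCE and 15 in rhein, and 2 genes, not 5, were in DMSO MCE and not in DMSO Diff. At equal list lengths 4 genes, not 2, were in DMSO Diff and not in DMSO MCE, and 3, not 5, in DMSO MCE and not in rhein. Below 0.01, DMSO Pre kept 14 of 24 peaks (58.3%, beside 64.7% of all), and 3 genes were in DMSO MCE and not in rhein. Foxo3, Pik3r2 and Sos1 dropped out of DMSO MCE under both settings, and Akt1 out of DMSO Pre and DMSO Diff below 0.01. Grb2 gained a peak in DMSO Diff when any exonic base sufficed and by listed symbol. Irs2 had 8 peaks in DMSO MCE and 8 in rhein at equal lengths. With DRACH for GGAC, peaks with the motif were 95.8%, 76.9% and 87.0% at the Pre, MCE and Diff stages of DMSO and 92.3% with rhein, since DRACH has more forms. The stricter overlap kept counts within 1.5 times, and the 100-base window and the listed parts stayed in the Wilson intervals of the main shares. The 5′ UTR share by listed part was 33.3%, not 20.8%, in DMSO Pre, 15.4%, not 7.69%, in DMSO MCE, and 15.4%, not 3.85%, in rhein. Without Irs2, a check added after seeing the data, DMSO MCE had 14 peaks and rhein 17, and 7 DMSO MCE peaks were shared with rhein. Leaving out a replicate was not possible with 1 IP per condition, and no paired analysis was possible because no result comes from a test. Read depth is unknown, so a missing peak was not shown to be a missing mark.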

Other observations

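Among the 46 genes, the share of a transcript under peaks varied widely. Eif4ebp1, whose transcript of 1997 bases is the shortest among the 20 genes with a peak, had 10.0% of it covered in DMSO MCE and 7.51% in DMSO Diff by 1 and 2 peaks. Igfbp4 had 35.6% covered in DMSO Diff and 29.7% in rhein, and Pik3r1 had 20.7% in DMSO Diff. Of 99 peaks in these genes, 30 (30.3%, 22.1 to 40.0) carried another gene's symbol in the lists, beside 27.8% of all placed peaks. Irs2 gave 21 of them, and without it 9 of 77 did (11.7%, 6.27 to 20.7). They included all peaks of Mtor, Igfbp5 and Atg2a and all but 1 of Irs2.

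Of the 109 other genes, a few are given here that were named after their values were seen. Eif4b, a translation initiation factor, had 0, 0, 6 and 1 peaks in DMSO Pre, DMSO MCE, DMSO Diff and rhein, and Ddit4, a stress-induced inhibitor of mTORC1, had 0, 1, 4 and 2. Trib1, a pseudokinase gene, had 0, 3, 0 and 2. Atg101, for a subunit of the ULK complex, had 0, 2, 0 and 3. Bnip3l, a mitophagy receptor, had 2 peaks in rhein alone.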
